A study of Homo sapiens with 6 samples.

Results

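The 52 genes described here encode the machinery that drives cells into mitosis, builds the spindle, attaches chromosomes to it and separates the daughter cells. They were chosen by name, as rows of the deposited gene tables whose symbol is on a list of mitotic genes without the kinesins named KIF. All 52 were found, of 62754 gene rows in each table. RNA was sequenced from HUDEP-2 cells, a human erythroid line that grows without limit as progenitors, kept in serum-free medium with EPO, SCF, dexamethasone and doxycycline. One group of 3 biological replicates received a lentiviral shRNA against MEN1 (labelled MEN1sh2, genotype MEN1 knockdown) and the other group of 3 received a non-targeting control shRNA (labelled Controlsh, genotype WT). Both groups were selected with puromycin at 2 µg/ml from 24 h after infection for 48 h and were harvested at 72 h. MEN1 encodes menin, a subunit of the MLL1 histone methyltransferase complex, and the series asks how this complex keeps fetal hemoglobin repressed. Only 1 hairpin against MEN1 and 1 cell line are labelled, so loss of menin and an off-target effect of the hairpin cannot be told apart.

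Entry into mitosis is driven by cyclin B bound to the kinase CDK1, with the Polo and Aurora kinases. Kinetochores assembled on centromeres then capture spindle microtubules, and a checkpoint holds back the anaphase-promoting complex until every chromosome is attached. Many of these genes are transcribed mainly in G2 and M phase under B-MYB (MYBL2), FOXM1 and the MuvB complex, and erythroid progenitors divide several times before they leave the cell cycle during terminal maturation.

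The deposited values are TPM, in which each gene has a share of the library scaled for gene length and the total is the same in every library. The total of aligned bases, inferred from the ratio of coverage to FPKM in genes with 1 annotated transcript, was 5.56 to 10.8 gigabases per library. MEN1 (ENSG00000133895, chromosome 11, 64803510 to 64811294, minus strand) was at 6.29, 6.44 and 6.88 TPM in MEN1 shRNA (knockdown) replicates 1, 2 and 3. Control replicates 1, 2 and 3 had 41.2, 39.6 and 37.1 TPM, so 16.6% of the control level remained (log2 change -2.42, adjusted p 8.54e-06). Differences, given as log2 changes (knockdown minus control, log2 fold changes of TPM + 1), were tested with limma over the 14294 genes with at least 1 TPM in at least 3 libraries, with Benjamini-Hochberg adjustment over all of them and a threshold of 0.05. Of 8 erythroid markers, all detected in every library, 5 were higher and none lower. That is 62.5% and 0%, against 22.1% and 31.5% of all genes tested. The summed level of the 8 was 52940 to 58610 TPM after knockdown against 31410 to 36980 TPM in the controls. Most of that sum was HBB, the adult beta-globin gene (50171 ± 2882 against 30237 ± 2696 TPM), and GATA1, KLF1 and EPOR did not pass the threshold. The summed level of 5 myeloid and mast cell markers was 29.6 to 37.5 TPM against 30.5 to 38.8 TPM, most of it SPI1, although LYZ fell (0.198 ± 0.0619 against 1.48 ± 0.198 TPM, adjusted p 0.00116), and 4 lymphoid markers summed to at most 0.946 TPM in any library. Levels were lower after knockdown for 4 megakaryocyte markers (summed 16.1 to 20.8 against 31.5 to 36.3 TPM, nearly all ITGA2B) and for PTPRC and CD34 (8.38 to 9.78 against 14.5 to 19.2 TPM, nearly all PTPRC). The megakaryocyte markers PF4 and PPBP and the B cell marker MS4A1 were listed at 0 in all 6 libraries.

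Mitotic genes were, on the whole, moderately higher after MEN1 knockdown. Of the 52 genes, all of which passed the filter on low values, 29 were higher, 6 were lower and 17 did not pass the threshold. That is 67.3% past the threshold, against 53.6% of all genes tested, and 55.8% higher against 22.1%. The share that was lower was 11.5%, against 31.5% of all genes. With TPM scaled by the median of ratios, 35 of the 52 genes were higher and 4 lower, and 49.5% of all calls were higher, against 41.2% without that scaling. The median log2 fold change of the 52 genes was 0.25, against -0.07 over all genes tested, and none of them changed by 2-fold on this scale (range -0.68 to 0.99). Their summed TPM was 7033 ± 152 after knockdown and 5878 ± 91.8 in the controls (SD, n = 3 each), which is 0.703% and 0.588% of all TPM. The mitotic genes are abundant, with a median of 119 TPM over the 6 libraries against 15.6 TPM for all genes tested. Among the 5872 tested genes between the lowest and the highest of them (20.1 to 307 TPM), 64.5% passed the threshold, 26.8% higher and 37.7% lower. The share past the threshold was thus close to that of genes in the same range of TPM, while the share that was higher was above theirs. The distribution of levels within that range was not matched.

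The shift was present in every knockdown library. The median of the 52 genes relative to the control mean was 0.23, 0.24 and 0.30 (log2) in knockdown replicates 1, 2 and 3, and it lay between -0.025 and 0.023 in the control libraries. The groups did not overlap in 42 genes (80.8% against 61.8% of all genes tested): 34 had every knockdown library above every control and 8 had the reverse, which is 65.4% and 15.4% of the 52, against 25.8% and 35.9% of all genes tested. In bulk RNA, a different share of cells in G2 and M phase and a different amount of these transcripts per cell cannot be told apart. Erythroid maturation markers rose in the same libraries. ALAS2, the first enzyme of heme synthesis in red cells, rose from 383 ± 39 to 780.4 ± 25.3 TPM and SLC4A1, the anion exchanger of the red cell membrane, from 112 ± 4.17 to 429 ± 23.5 TPM (SD, n = 3 each), and their part in the mitotic gene differences was not tested.

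**Figure D1:**
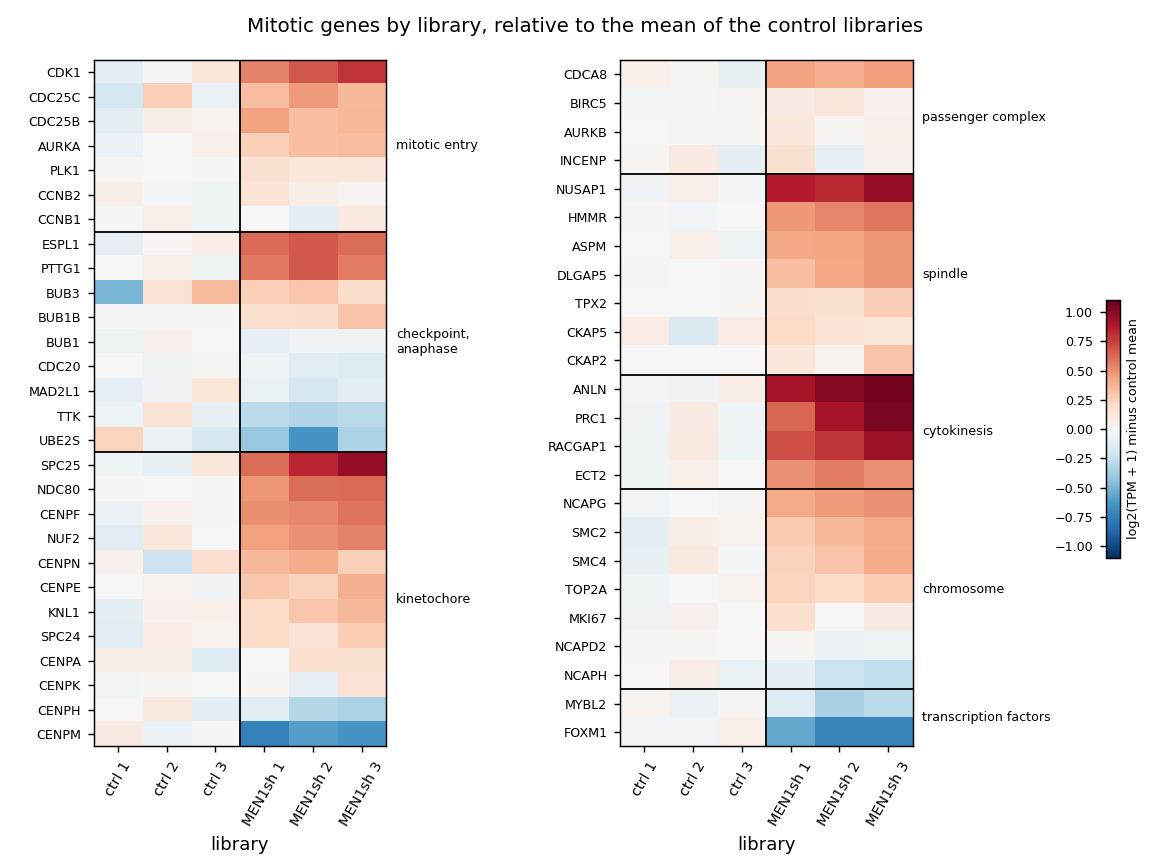
Log2(TPM + 1) of each of the 52 mitotic genes in each library, minus the mean of the 3 control libraries (rows: genes grouped by role and ordered by fold change; columns: libraries; red higher, blue lower). The 4 cytokinesis genes are red in all 3 knockdown libraries and FOXM1 and MYBL2 are blue, and the widest departures in the control columns are those of BUB3.

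**Figure D2:**
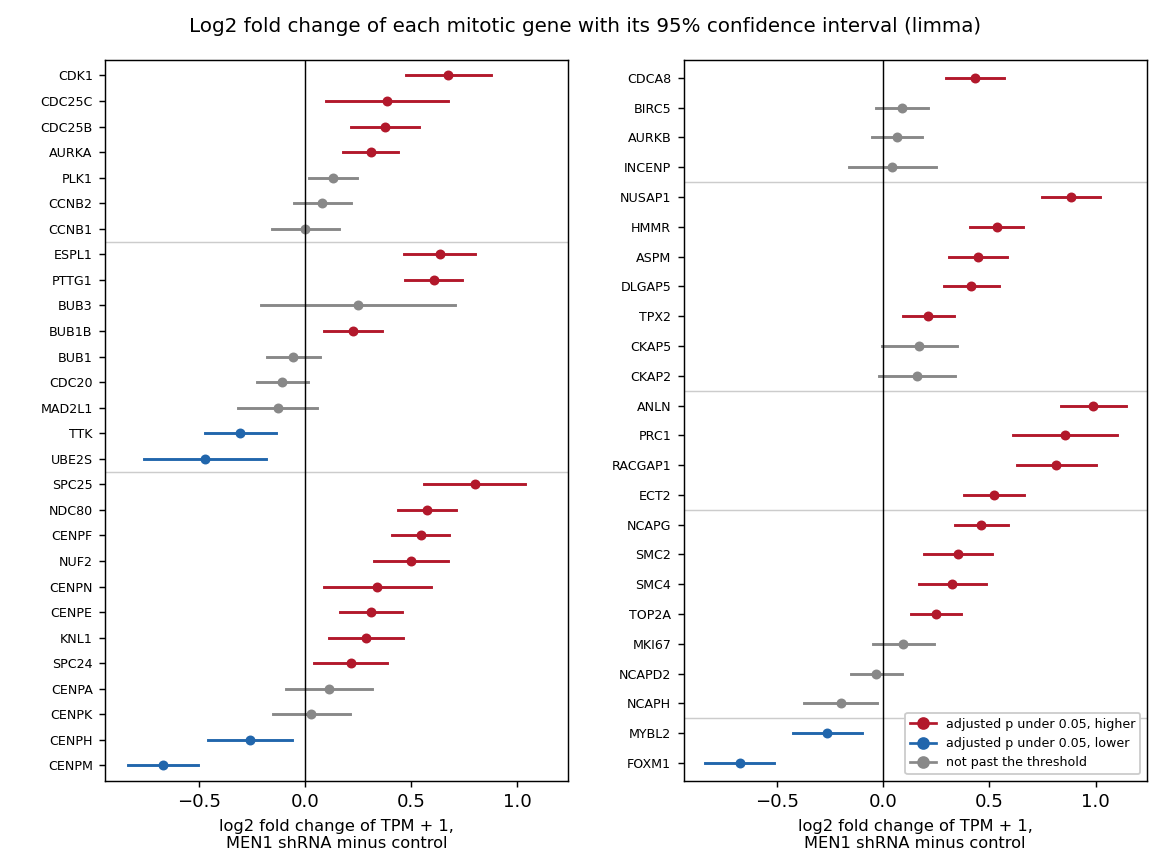
Log2 fold change of TPM + 1 (MEN1 shRNA minus control shRNA, horizontal axis) of each mitotic gene, with the limma estimate as a point and its 95% confidence interval as a bar, grouped by role. The estimates run from -0.68 for FOXM1 to 0.99 for ANLN, with 29 genes higher, 6 lower and 17 not past the threshold.

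Many promoters of these genes hold short elements that the choice of genes did not use. Mitotic promoters are known for the cell cycle homology region, read here as TTTGAA or TTCGAA, and for CCAAT boxes, which NF-Y binds. RefSeq promoter windows (GRCh38.p14) were matched by symbol for 42 of the 52 genes, with 54 start sites, and not for AURKA, BIRC5, BUB3, CENPH, CENPM, FOXM1, KNL1, RACGAP1, TPX2 and TTK. In the 250 bases before the start, searched on both strands, TTTGAA or TTCGAA occurred at 48.1% of these start sites and at 14.3% of the 35116 start sites of all genes. CCAAT occurred at 68.5% and 32.0%. Both kinds occurred together at 38.9% and 5.05%. Within the list, TTTGAA or TTCGAA was found at 18 of the 36 start sites of genes that were higher and at 8 of the 16 of genes that did not pass the threshold. CCAAT was found at 21 of those 36 and at 15 of those 16. The genes that were lower had only 2 matched start sites, 0 with TTTGAA or TTCGAA and 1 with CCAAT. In a longer window of 300 bases that runs past the start, TTTGAA or TTCGAA occurred at 64.8% of the list's sites and 16.4% of all. There it was found at 25 of the 36 sites of genes that were higher and at 10 of the 16 of genes that did not pass. Genes with several start sites count once per site, these shares were not tested, and a match gives only the letters in its window. The windows below are shown because they belong to genes with different responses, 3 that rose (ANLN, PRC1 and HMMR), 1 that did not pass the threshold (PLK1) and 1 that fell (MYBL2); capitals mark matches to either kind of element on either strand, and each window is read 5′ to 3′ on the strand of the gene.
ANLN (chr7:36389612-36389861, plus strand): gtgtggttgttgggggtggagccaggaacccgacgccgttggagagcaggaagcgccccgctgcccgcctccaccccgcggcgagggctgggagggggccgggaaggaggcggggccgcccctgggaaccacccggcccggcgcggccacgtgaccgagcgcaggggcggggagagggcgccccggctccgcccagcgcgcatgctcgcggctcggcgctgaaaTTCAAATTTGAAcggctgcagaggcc
PRC1 (chr15:90994536-90994785, minus strand): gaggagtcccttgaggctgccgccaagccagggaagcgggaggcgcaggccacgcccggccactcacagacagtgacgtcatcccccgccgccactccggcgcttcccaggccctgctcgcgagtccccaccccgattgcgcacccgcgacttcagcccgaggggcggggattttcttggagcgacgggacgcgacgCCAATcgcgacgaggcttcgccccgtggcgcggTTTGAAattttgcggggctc
HMMR (chr5:163460382-163460631, plus strand): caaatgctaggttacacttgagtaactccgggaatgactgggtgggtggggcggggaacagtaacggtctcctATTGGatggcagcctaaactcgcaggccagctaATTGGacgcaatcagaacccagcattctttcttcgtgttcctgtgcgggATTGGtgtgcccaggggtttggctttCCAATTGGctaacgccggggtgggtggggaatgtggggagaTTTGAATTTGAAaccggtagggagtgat
PLK1 (chr16:23678639-23678888, plus strand): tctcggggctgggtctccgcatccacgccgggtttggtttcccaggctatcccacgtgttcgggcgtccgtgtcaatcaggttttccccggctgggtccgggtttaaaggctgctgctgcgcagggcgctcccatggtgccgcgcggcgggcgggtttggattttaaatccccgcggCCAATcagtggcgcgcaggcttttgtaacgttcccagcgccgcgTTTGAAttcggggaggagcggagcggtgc
MYBL2 (chr20:43666864-43667113, plus strand): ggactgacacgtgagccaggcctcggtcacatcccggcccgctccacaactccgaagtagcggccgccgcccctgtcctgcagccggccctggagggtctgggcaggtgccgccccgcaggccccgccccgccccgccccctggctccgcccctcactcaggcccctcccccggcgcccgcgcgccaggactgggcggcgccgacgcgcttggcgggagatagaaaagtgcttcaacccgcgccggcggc
In ANLN the matches lie 26 and 20 bases before the start and abut each other. PRC1 and PLK1 have the elements in the same order but at different spacing, a CCAAT 53 and 73 bases before the start and a TTTGAA 20 and 29 bases before it, although PRC1 rose and PLK1 did not pass the threshold. HMMR holds both kinds repeatedly, and the MYBL2 window holds neither. Other genes with the same responses differ. The 250-base windows of CENPE, NDC80 and NUF2, which rose, hold neither kind. Over 300 bases, TTTGAA or TTCGAA occurs 2 times in NDC80 and 1 time in NUF2, but not in CENPE. The window of UBE2S, which fell, holds a CCAAT on the opposite strand.

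Among the 7 genes of mitotic entry, 4 were higher (57.1%, against 22.1% of all genes tested) and 3 did not pass the threshold, with none lower. CDK1, the kinase that triggers mitosis (ENSG00000170312, chromosome 10, 60778331 to 60794852, plus strand), was at 197, 216 and 234 TPM in the knockdown libraries against 125, 132 and 147 TPM in the controls. Its lowest knockdown library lay well above its highest control, with a log2 change of 0.67 (SE 0.0859, adjusted p 0.000455). The B-type cyclins that bind it did not pass the threshold. CCNB1, which encodes cyclin B1, was at 254, 236 and 274 TPM against 252, 264 and 246 TPM, with overlapping groups and a log2 change of 0.0032 (95% confidence interval -0.16 to 0.16, adjusted p 0.974). CCNB2, which encodes cyclin B2, was at 222 ± 9.46 TPM against 209.7 ± 8.18 TPM (adjusted p 0.266), also with overlapping groups. The intervals of both cyclins end below that of CDK1, which starts at 0.47, but the difference between these genes was not tested. CCNA2, which encodes cyclin A2, another partner of CDK1 and outside the list, was higher at 234 ± 3.1 TPM against 198 ± 7.07 TPM (log2 change 0.24, adjusted p 0.00553).

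Of the CDC25 phosphatases, which activate CDK1, the 2 on the list were higher, while CDC25A, outside it, did not pass the threshold, at 39 ± 3.13 TPM against 39 ± 1.23 TPM (adjusted p 0.987). CDC25B was at 85, 78.6 and 80.3 TPM against 58, 65.3 and 63.9 TPM (log2 change 0.38, adjusted p 0.00244). CDC25C, a less abundant member of the family, was at 22.8 ± 1.15 TPM against 17.4 ± 3.12 TPM (SD, n = 3 each; log2 fold change 0.39, adjusted p 0.0308). It overlaps FAM53C on the opposite strand, which was at 44.3 TPM against 39.5 TPM; the strand setting used in assembling transcripts is not given in the sources used here, and the part of overlapping genes in the values of this gene and those below was not tested. Its control libraries stood at 14.9, 20.9 and 16.3 TPM, and the call was lost in each of 5 fits that left out 1 library (knockdown replicate 1, 2 or 3, or control replicate 1 or 3), with adjusted p-values of 0.0526, 0.0944, 0.0623, 0.0909 and 0.0885. AURKA, the kinase of centrosome maturation, was at 141, 147 and 148 TPM against 112, 118 and 122 TPM, without overlap (log2 change 0.31, SE 0.0562, adjusted p 0.00253). PLK1, the Polo kinase, lay just beyond the threshold. Its TPM was 201, 195 and 194 in the knockdown libraries against 182, 179 and 176 in the controls, again without overlap, and its log2 change was 0.13 (adjusted p 0.0524). With TPM scaled by the median of ratios, which moves the median of all genes from -0.07 to 0.0078, PLK1 passed the threshold (log2 change 0.22, adjusted p 0.0103), and it did so in 6 of 18 alternatives in all.

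Checkpoint and anaphase genes moved both ways: of 9, 3 were higher, 2 were lower and 4 did not pass the threshold, with a median log2 fold change of -0.054. The share past the threshold, 55.6%, was near the 53.6% of all genes tested. The largest rises were those of securin and separase, the inhibitor and the protease that together control the cutting of cohesin. PTTG1, which encodes securin (ENSG00000164611, chromosome 5, 160421855 to 160428739, plus strand), was at 327, 349 and 324 TPM after knockdown against 219, 227 and 209.9 TPM in the controls. Every knockdown library exceeded every control by a wide margin (log2 change 0.61, SE 0.057, adjusted p 0.000123). Its near-identical copies took few reads, with PTTG2 listed at 0 in all libraries and PTTG3P at no more than 0.505 TPM. ESPL1, which encodes separase, was a much scarcer transcript, at 36.8, 38.3 and 36.6 TPM against 22, 23.9 and 24.9 TPM, and it rose by a similar factor (log2 change 0.64, SE 0.0717, adjusted p 0.000266).

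Genes of the checkpoint itself moved in opposite directions or did not pass the threshold. TTK, the kinase that starts checkpoint signalling, was at 81.2, 79 and 80.5 TPM against 95.5, 109 and 93.7 TPM, so all 3 knockdown libraries lay below the controls (log2 change -0.30, SE 0.0717, adjusted p 0.0086). BUB1B, which encodes BUBR1 of the mitotic checkpoint complex, was at 100.4, 102 and 110.5 TPM against 87.6, 89.7 and 89.5 TPM (log2 change 0.23, adjusted p 0.0128). Its direction was thus opposite to that of TTK. CDC20, the activator of the anaphase-promoting complex that the checkpoint binds, was at 200.1, 191 and 188 TPM against 209, 203 and 212 TPM, lower in every library but not past the threshold (log2 change -0.11, adjusted p 0.121). BUB1 (log2 change -0.054, adjusted p 0.426) and MAD2L1 (-0.13, adjusted p 0.213) had overlapping groups. BUB3 also overlapped, and its spread came from control replicate 1 at 111 TPM, beside 177 and 202 TPM in control replicates 2 and 3 and 189 ± 7.24 TPM after knockdown. Without that library its log2 change went from 0.25 to -0.0018. UBE2S, the E2 enzyme that elongates ubiquitin chains for the anaphase-promoting complex, fell from 148 ± 23 to 106 ± 11.3 TPM (log2 change -0.47, adjusted p 0.0137). Its span overlaps RPL28 on the opposite strand, which was at 1068 TPM after knockdown and 1297 TPM in the controls, and its processed copies UBE2SP1 and UBE2SP2 were listed at up to 13.1 and 6.39 TPM. Without a filter on low values the adjusted p of UBE2S was 0.0599.

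**Figure D3:**
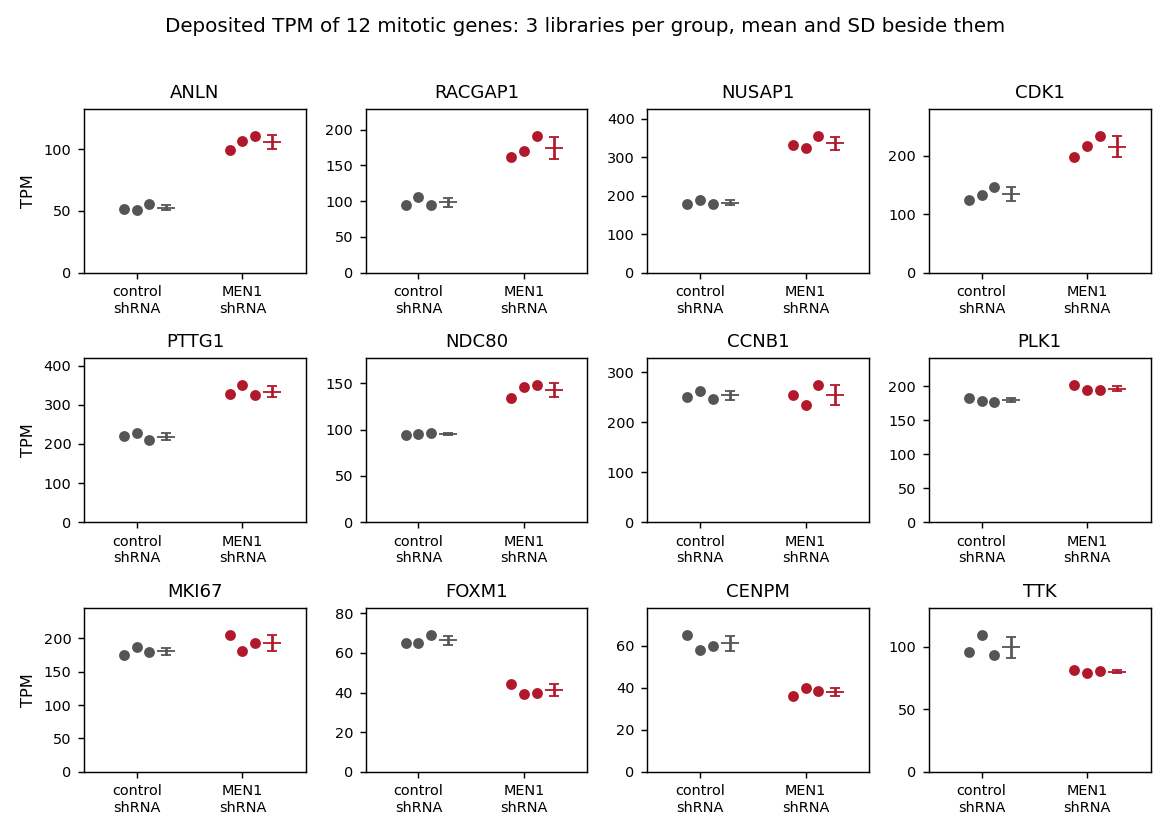
Deposited TPM (vertical axis, from 0) of 12 mitotic genes in the 3 control shRNA and 3 knockdown libraries, with each library as a point and the mean and SD of each group beside the points. ANLN, RACGAP1, NUSAP1, CDK1, PTTG1 and NDC80 are higher without overlap, CCNB1 and MKI67 overlap, PLK1 is slightly higher without passing the threshold, and FOXM1, CENPM and TTK are lower without overlap.

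Kinetochore and centromere genes were mostly higher: of 12, 8 were higher, 2 were lower and 2 did not pass the threshold. That is 66.7% higher and 16.7% lower, against 22.1% and 31.5% of all genes tested. The 4 subunits of the NDC80 complex, the rod that binds microtubules at the outer kinetochore, all rose. NDC80 (ENSG00000080986, chromosome 18, 2571557 to 2616635, plus strand) was at 134, 146 and 148 TPM against 94.1, 95.6 and 96.5 TPM (log2 change 0.57, SE 0.0588, adjusted p 0.000175). The control libraries lay close together and far below the lowest knockdown library. Its partner NUF2 was at 92.4 ± 3.17 against 65.2 ± 5.59 TPM (log2 change 0.50). SPC25 had the largest rise of the complex, from 35.5 ± 2.8 to 62.8 ± 7.53 TPM (log2 change 0.80, adjusted p 0.00046). SPC24, which pairs with SPC25 at the inner end of the rod, had the smallest, from 77.6 ± 5.85 to 90.1 ± 4.1 TPM (log2 change 0.22, adjusted p 0.0387). The SPC24 call was lost when any 1 library other than control replicate 2 was left out (adjusted p 0.0519 to 0.118).

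Genes for 3 other proteins of the corona and the outer kinetochore were also higher. CENPF, a large protein of the fibrous corona, was at 148, 149 and 158 TPM against 99, 107 and 105 TPM (log2 change 0.55, SE 0.0575, adjusted p 0.000198). The gap between the groups was far wider than the spread within either. CENPE, the motor that moves chromosomes to the spindle equator, rose from 55.1 ± 1.58 to 68.7 ± 3.39 TPM, and KNL1, the scaffold that recruits the BUB proteins, from 35.7 ± 2.29 to 43.8 ± 2.3 TPM (log2 changes 0.31 and 0.29).

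Subunits of the constitutive centromere network, which sit on centromeric chromatin, did not share one direction. CENPM (ENSG00000100162, chromosome 22, 41938737 to 41947152, minus strand) was at 36, 39.7 and 38.5 TPM in the knockdown libraries against 65.1, 58.2 and 59.99 TPM in the controls. It fell in every library (log2 change -0.67, SE 0.0709, adjusted p 0.000204), the second largest fall among the 52 genes. CENPH, of the same subcomplex, fell from 68 ± 4.79 to 56.8 ± 5.14 TPM (log2 change -0.26, adjusted p 0.0356), but 11 of 18 alternatives ended this call, among them 4 fits that left out knockdown replicate 2 or 3 or control replicate 1 or 2 (adjusted p 0.0835 to 0.115) and all 4 other scalings of the values (0.0566 to 0.131). CENPK, the third member of that subcomplex listed here, was at 44.1 ± 3.96 TPM against 43.1 ± 0.739 TPM and did not pass (adjusted p 0.765). CENPN, which reads the centromeric nucleosome, rose from 60.8 ± 8.85 to 76.9 ± 3.94 TPM (log2 change 0.34, adjusted p 0.029). Its opposite-strand neighbour CMC2 was at 43.6 TPM against 36.0 TPM, and the call for CENPN was lost without knockdown replicate 1 or 2 or control replicate 1 or 2 (adjusted p 0.0547 to 0.0882). CENPA, the centromeric histone H3 variant itself, overlapped between groups at 41.1 ± 2.85 TPM against 38 ± 3.21 TPM (log2 change 0.11, adjusted p 0.311).

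The chromosomal passenger complex, which corrects faulty attachments, had 1 of its 4 subunits past the threshold, and it was higher. That is 25%, against 53.6% of all genes tested that passed and 22.1% that were higher. CDCA8, which encodes borealin (ENSG00000134690, chromosome 1, 37692481 to 37709719, plus strand), was at 101, 97.5 and 102 TPM against 76.6, 75.2 and 69.8 TPM (log2 change 0.43, SE 0.0592, adjusted p 0.000656). AURKB, the kinase of the complex, was at 147, 139 and 142 TPM against 136, 135 and 138 TPM, without overlap but with a log2 change of only 0.066 (95% confidence interval -0.053 to 0.18, adjusted p 0.315). BIRC5, which encodes survivin, was at 101, 104 and 98 TPM against 93.9, 94.1 and 96.6 TPM (log2 change 0.086, adjusted p 0.205). Both passed with median-of-ratios scaling, at adjusted p-values of 0.0435 and 0.0318. INCENP, the scaffold, had overlapping groups (log2 change 0.042, 95% confidence interval -0.16 to 0.25, adjusted p 0.72). The sum over the complex was 400.0 ± 9.69 TPM against 360.0 ± 4.11 TPM.

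All 7 genes of spindle assembly had a positive log2 fold change, as did 6389 of all 14294 genes tested. Of the 7, 5 passed the threshold as higher (71.4%, against 22.1% of all genes tested). NUSAP1, which bundles microtubules near chromosomes (ENSG00000137804, chromosome 15, 41320794 to 41381050, plus strand), was at 333, 323 and 356 TPM after knockdown against 178, 189 and 179.6 TPM in the controls. This was 1.85 times the control level (log2 change 0.88, SE 0.0584, adjusted p 3.64e-05), the second largest rise of the 52 genes. NUSAP1 overlaps OIP5-AS1 on the same strand, which went the other way, with 42.4 TPM against 47.6 TPM. HMMR, a spindle and centrosome protein that is also a hyaluronan receptor, was at 138, 144 and 149 TPM against 101, 97.1 and 98.8 TPM (log2 change 0.53, SE 0.0543, adjusted p 0.00017). ASPM, which focuses spindle poles, was at 77.1, 77.9 and 80.6 TPM against 57.4, 59.7 and 54.9 TPM (log2 change 0.45, SE 0.0588, adjusted p 0.000531). Neither gene's groups overlapped. DLGAP5, which stabilises kinetochore fibres, rose from 160.4 ± 1.5 to 214 ± 10.7 TPM, and TPX2, the activator of AURKA, from 224 ± 1.66 to 259.8 ± 9.71 TPM (log2 changes 0.41 and 0.21, adjusted p 0.0006 and 0.00966). The microtubule polymerase CKAP5 (log2 change 0.17, adjusted p 0.098) and CKAP2 (0.16, adjusted p 0.12) were higher in every knockdown library but missed the threshold. Both passed with median-of-ratios scaling (adjusted p 0.0393 and 0.0235) and with globin and mitochondrial genes left out of the TPM total (0.0352 and 0.0342), and leaving out 1 library lowered their log2 changes to as little as 0.091 and 0.080.

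Genes of the central spindle and of cytokinesis, the physical separation of daughter cells, had the highest median of the 8 role groups. All 4 were called higher and had no overlap, against 22.1% and 25.8% of all genes tested. Their median log2 fold change was 0.83, against -0.07 over all genes tested. Their summed TPM was 554.9 ± 50.6 after knockdown and 310.4 ± 12.6 in the controls (SD, n = 3 each), a ratio of 1.79. ANLN encodes anillin, which links the contractile ring to the membrane (ENSG00000011426, chromosome 7, 36389821 to 36453791, plus strand); its promoter is the first of those printed above. Its TPM was 99.6, 106 and 111 in the knockdown libraries against 51.6, 51.1 and 55.3 in the controls, the largest rise of the 52 genes at 2 times the control mean in TPM (log2 change 0.99, SE 0.0652, adjusted p 3.62e-05). RACGAP1, the GTPase-activating subunit of centralspindlin (ENSG00000161800, chromosome 12, 49976923 to 50033136, minus strand), was at 161, 169.8 and 191 TPM against 94.9, 105 and 95.1 TPM (log2 change 0.81, SE 0.0797, adjusted p 0.000145). Neither gene overlapped between groups, and the gap exceeded the spread within either group. KIF23, the kinesin that forms centralspindlin with RACGAP1 and lies outside the list, was at 43.9, 39.3 and 40.1 TPM against 69, 70.7 and 77.9 TPM, lower in every library (log2 change -0.80, adjusted p 0.000115); it is named here after its value was seen.

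ECT2, the exchange factor that centralspindlin recruits to activate RhoA, was at 58.9, 61.3 and 58.8 TPM against 39.8, 42.8 and 41.3 TPM (log2 change 0.52, SE 0.06, adjusted p 0.000291). PRC1, which crosslinks the antiparallel microtubules of the central spindle, was at 183, 221 and 243 TPM against 115, 126 and 114 TPM (log2 change 0.86, SE 0.105, adjusted p 0.000381). Relative to its mean, PRC1 had the widest spread among knockdown libraries of the 52 genes, with replicate 1 nearest to the controls and still above all of them. An unnamed gene row on the same strand, ENSG00000284946, overlaps PRC1 and rose with it, from 8.54 to 19.7 TPM.

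Of 7 genes of chromosome structure, 4 were higher (57.1%, against 22.1% of all genes tested) and 3 did not pass the threshold. In condensin, the complex that compacts mitotic chromosomes, both SMC ATPases and 1 of the 3 other subunits of condensin I rose. NCAPG (ENSG00000109805, chromosome 4, 17810979 to 17844865, plus strand) was at 156, 162 and 166 TPM against 114, 117 and 119.7 TPM (log2 change 0.46, SE 0.053, adjusted p 0.000286). SMC2 was at 110.2, 115 and 121 TPM against 83.3, 94.6 and 92.8 TPM (log2 change 0.35, adjusted p 0.0037), and SMC4 rose from 207 ± 13.3 to 260.0 ± 13.8 TPM (log2 change 0.32, adjusted p 0.00492). SMC4 overlaps TRIM59 (44.2 against 44.7 TPM) and IFT80 (25.01 against 15.2 TPM) on the opposite strand. NCAPD2 was nearly level at 161 ± 4.91 TPM against 164 ± 2.85 TPM (log2 change -0.032, 95% confidence interval -0.15 to 0.088, adjusted p 0.629), and its sign turned with 3 of the 4 other scalings. NCAPH, the kleisin that closes the ring, was lower in every library at 40.3 ± 2.69 TPM against 46.4 ± 2.3 TPM without passing the threshold (log2 change -0.20, adjusted p 0.052). Estimates within this 1 complex thus had both signs, and the differences between subunits were not tested.

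Of the proliferation markers on the list, TOP2A was higher and MKI67 did not pass the threshold. TOP2A, the topoisomerase that untangles sister chromatids, was at 333, 328 and 341 TPM against 272, 282 and 289 TPM (log2 change 0.25, SE 0.0503, adjusted p 0.0042). MKI67, which encodes the Ki-67 protein that coats mitotic chromosomes, was at 205, 182 and 192 TPM against 175, 186 and 179.5 TPM. Its groups overlapped (log2 change 0.094, 95% confidence interval -0.05 to 0.24, adjusted p 0.237), and it passed only with median-of-ratios scaling among the alternatives tried (log2 change 0.18, adjusted p 0.0340). PCNA, the replication clamp and a proliferation marker outside the list, rose from 533 ± 13.9 to 672 ± 1.49 TPM (log2 change 0.33, adjusted p 0.000822).

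Both transcription factors on the list, FOXM1 and MYBL2, were lower. FOXM1 (ENSG00000111206, chromosome 12, 2857680 to 2877174, minus strand) was at 44.5, 39.5 and 39.7 TPM in the knockdown libraries against 65.2, 65.1 and 69 TPM in the controls. Its highest knockdown library was far below its lowest control (log2 change -0.68, SE 0.07, adjusted p 0.000182), and this was the largest fall of the 52 genes. FOXM1 overlaps ITFG2 and RHNO1 on the opposite strand, which were at 20.8 and 43.3 TPM after knockdown and at 34.1 and 44.8 TPM in the controls. MYBL2, which encodes B-MYB (ENSG00000101057, chromosome 20, 43667019 to 43716495, plus strand), was at 230.2, 198 and 206 TPM against 259.6, 243 and 258 TPM (log2 change -0.26, SE 0.0697, adjusted p 0.0146). The call for MYBL2 was lost with median-of-ratios scaling (log2 change -0.18, adjusted p 0.0902) and without knockdown replicate 2 (-0.22, adjusted p 0.0509). Of 4 LIN genes of the MuvB complex, outside the list, LIN37 (log2 change 0.55, adjusted p 0.003) and LIN54, which binds DNA (0.28, adjusted p 0.038), were higher, and LIN9 and LIN52 did not pass the threshold.

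Mitotic genes outside the list were called about as often as any gene, but a larger share was higher and a smaller share lower. Of 92 such genes in 5 lists, all tested, 33 were higher, 19 were lower and 40 did not pass the threshold, with a median log2 fold change of 0.047. That is 56.5% past the threshold, against 53.6% of all genes tested. By direction, 35.9% were higher and 20.7% lower, against 22.1% and 31.5% of all genes tested. Among other genes of mitotic entry 8 of 16 were higher and 1 was lower (50% and 6.25%). WEE1, the kinase that holds CDK1 inactive, rose from 32.7 ± 1.89 to 64.8 ± 6.39 TPM and CCNF, which encodes cyclin F, from 42.6 ± 0.342 to 58.6 ± 0.977 TPM (log2 changes 0.96 and 0.45), while BORA, the cofactor through which AURKA activates PLK1, fell from 27.5 ± 0.933 to 14 ± 1.84 TPM (-0.93). Other kinetochore genes were higher in 9 and lower in 6 of 26 (34.6% and 23.1%). SKA2, of the complex that holds kinetochores to microtubule ends, rose from 20.9 ± 2.62 to 43.7 ± 4.37 TPM (1.03) and DSN1, of the MIS12 complex, from 32.6 ± 1.26 to 50.00 ± 1.24 TPM (0.60). ZWILCH, of the complex that brings dynein to kinetochores, fell from 48.1 ± 0.47 to 24.9 ± 3.47 TPM (-0.94).

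Genes of the anaphase-promoting complex and other checkpoint genes were higher in 5 and lower in 7 of 23, which is 21.7% and 30.4%, near the 22.1% and 31.5% of all genes tested. Among the 14 subunits of the complex on that list, 2 were higher, 5 were lower and 7 did not pass the threshold. Of all genes tested, 53.6% passed it, so the count of subunits called does not stand out. ANAPC1, the largest subunit of the complex, fell from 60.7 ± 2.99 to 24.4 ± 4.5 TPM (-1.30, adjusted p 0.000122), the largest change of all the mitotic genes examined. ANAPC5, a platform subunit, fell from 158 ± 2.48 to 106 ± 8.06 TPM (-0.58), and CDC27, to which the activators bind, rose from 113 ± 5.51 to 159 ± 6.62 TPM (0.49). Other spindle, centrosome and cytokinesis genes were higher in 9 and lower in 4 of 21 (42.9% and 19.0%), with a median log2 fold change of -0.036. Their lowest adjusted p-values belonged to CKAP2L (0.60), the gamma-tubulin complex gene MZT1 (0.55) and TUBG1, which encodes gamma-tubulin (0.30). The 4 lower genes were CEP55 (-0.46), HAUS7 (-0.41), ARHGAP11A (-0.34) and HAUS6 (-0.26). Of 6 other chromosome genes 2 were higher, CDCA2 (0.33) and the condensin II subunit NCAPG2 (0.23), and 1 was lower, the topoisomerase TOP2B (-0.64, from 140.0 ± 7.66 to 89.5 ± 5.54 TPM), the paralog of TOP2A that is not restricted to dividing cells.

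For comparison, 43 DNA replication genes, which act in S phase, were higher in 13 and lower in 12, which is 30.2% and 27.9% against 22.1% and 31.5% of all genes tested, with a median log2 fold change of -0.044. The 12 mitotic kinesins examined outside the list were higher in 6 and lower in 2 (50% and 16.7%), with a median of 0.19. These lists are set beside the mitotic genes as counts and medians, and the difference between the lists was not tested.

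**Figure D4:**
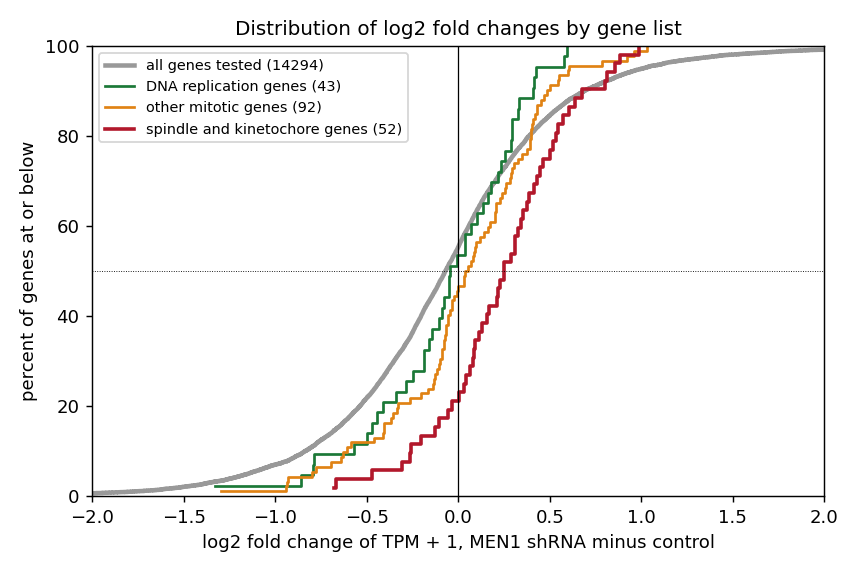
Cumulative percent of genes (vertical axis) at or below each log2 fold change of TPM + 1 (horizontal axis, MEN1 shRNA minus control) for all 14294 genes tested, 43 DNA replication genes, 92 other mitotic genes and the 52 spindle and kinetochore genes. The curve of the 52 genes crosses 50% at 0.25, to the right of the other mitotic genes (0.047), the replication genes (-0.044) and all genes (-0.07), and it spans a narrower range than all genes.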

How the data were processed

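Poly(A)-selected RNA from HUDEP-2 cells was sequenced as 6 libraries with a directional library kit, per the labels' protocols. The submitters' processing notes name FastQC, Trimmomatic, STAR 2.7.1a, Picard 2.20.4, StringTie 2.0.4 and hg38. Neither the annotation nor the strand setting of the assembly is stated there or in the labels. The deposited tables give StringTie's TPM, FPKM and coverage per gene, without counts. Control replicate 2 had 1 slightly negative TPM value and 2 slightly negative coverage values in the deposited table, which were set to 0. FPKM as deposited by the authors served as an alternative scale, and the deposited coverage only to infer depth. Of 62754 gene identifiers, 58261 were in GENCODE v29, from which overlapping genes were read.

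The main test was limma 3.58.1 (R 4.3.3; lmFit, eBayes with trend) on log2(TPM + 1), two-sided, over all 6 libraries without covariates. Genes with at least 1 TPM in at least 3 libraries were tested. P-values were adjusted by the Benjamini-Hochberg method over all 14294 genes, with a threshold of 0.05. Fold changes are on the log2(TPM + 1) scale and are understated for genes of low TPM. The fit was also run on simulated data with 3 against 3 libraries, over 14294 genes. It called 42 of 100 genes changed by 0.5 (log2) and 76 of 100 changed by 1, with 2 false calls. No other genes were changed in the simulation, whereas 7657 of the 14294 genes passed the threshold in the data. The adjusted threshold was thus stricter in the simulation, and these shares are not the power of the test in the data. Comparing 3 libraries with 3, an exact permutation test of 1 gene cannot go below p = 0.1. The replicates are labelled biological, but separate cultures are not described, so p-values measure the spread between these libraries.

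The mitotic genes and all lists were chosen with earlier results of these data known. Genes given with every library's value are the 3 of lowest adjusted p in each role group, plus CCNB1, CDK1, PLK1, AURKA, AURKB, CDC20, BUB1B, MKI67, TOP2A, FOXM1, MYBL2 and those of largest rise and fall; PRC1, KIF23, CCNA2, CDC25A, LIN37, LIN54 and PCNA were added after their values were seen. Of the other mitotic genes, the 3 of lowest adjusted p in each list are named. The 4 lower genes of the spindle, centrosome and cytokinesis list were added after their values were seen. The 18 alternatives changed the pseudocount, filter, scale, threshold or variance model, added the replicate number as a block, or left out 1 library.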

Additional observations from a re-analysis of the deposited data

How the results depend on the processing

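The counts of genes past the threshold, higher and lower varied over the alternatives. From 35, 29 and 6 in the main fit they went to 39, 35 and 4 under median-of-ratios scaling. They were 38, 33 and 5 when globin and mitochondrial genes were left out of the TPM total, and 30, 26 and 4 without a filter on low values. The median log2 fold change of the 52 genes was 0.34 under median-of-ratios scaling and 0.32 when globin and mitochondrial genes were left out of the TPM total, and 3 genes were lower at an adjusted p of 0.01. The median of the 52 genes minus that of all genes stayed between 0.25 and 0.35 over the 18 alternatives. Leaving out 1 library at a time gave 30 to 33 genes past the threshold, 26 to 28 higher, 4 to 7 lower and a median of 0.22 to 0.28. At a threshold of 0.05, 26 of the 29 higher calls were kept in all 17 alternatives (not CDC25C, SPC24 and CENPN), and 3 of the 6 lower calls (not UBE2S, CENPH and MYBL2).

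Signs turned only in genes that did not pass the threshold, and the cause was not tested. CCNB1 was at -0.014 with array weights, BUB1 at 0.033 with median-of-ratios scaling and 0.012 with that reduced total, and NCAPD2 at 4.9e-05 with FPKM, 0.056 with median-of-ratios scaling and 0.035 with that reduced total. Leaving out 1 library gave ranges of -0.050 to 0.058 for CCNB1, -0.023 to 0.11 for INCENP, -0.034 to 0.092 for CENPK and -0.0018 to 0.43 for BUB3.

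With the replicate number as a block, 33 of the 52 genes passed (27 higher, 6 lower), and 7012 of all genes; SPC24 (adjusted p 0.065) and CENPN (0.0544) were no longer called. Deviations of same-numbered libraries correlated at 0.0171, -0.0266 and -0.0124 across genes, so the numbers were not taken to pair the libraries. MEN1 shRNA replicate 2 correlated best with control replicate 3. The files give no read counts, so depth limits are known only from inferred aligned bases.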
